A study of Mus musculus with 15 samples.

Results

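The 33 interferon response and MHC class I genes described here were followed in RNA from bulk mouse pancreatic islets. They were chosen by gene symbol, and each of the 33 had an entry among the 24060 entries of the deposited count table. By role they comprise 4 signal transducers and regulators (Stat2, Irf1, Irf7, Irf9), 1 feedback inhibitor (Usp18), 2 sensors of viral RNA (Ddx58, Ifih1), 14 antiviral effectors, 4 interferon-inducible GTPases, 5 genes that supply and load peptides for class I molecules (Psmb8, Psmb9, Tap1, Tap2, Tapbp) and 3 class I chains (H2-K1, H2-D1, B2m). The islets came from FVB/NJ mice aged 9 to 10 weeks, in 5 groups of 3 libraries. The hIAPP mice carried human islet amyloid polypeptide (IAPP) driven by the insulin II promoter, and the hIAPP_hCAST mice carried the same transgene together with human calpastatin (CAST) under an insulin promoter. The rIAPP mice carried rodent IAPP driven by the insulin II promoter, the hCAST mice carried human CAST driven by that promoter, and the WT mice carried no transgene that the labels name. An insulin promoter directs a transgene to the beta cells, whereas the RNA came from all cells of the islet preparation. IAPP is a hormone released together with insulin. Its human form can aggregate into amyloid and its rodent form does not, and calpastatin inhibits the calpain proteases. Libraries are named by group and number. Nothing in the labels says whether the libraries of a group came from separate mice, from pools or from several transgenic lines, so p-values measure the spread between these libraries. The numbers in the titles fall into 3 separate ranges, 1 for hIAPP and hIAPP_hCAST, 1 for rIAPP and 1 for hCAST and WT. In each comparison of hIAPP, rIAPP or both human IAPP groups with groups of another range, line, litter and handling cannot be told apart from the group.

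Interferons are secreted proteins that bind receptors on neighbouring cells and activate receptor-bound kinases, which in turn activate transcription factors built from STAT proteins, with IRF9 as a DNA-binding partner in the type I pathway. These factors switch on a shared programme of sensors of foreign RNA, antiviral effectors and the machinery of antigen presentation. Class I molecules are heavy chains paired with beta-2-microglobulin, and they show peptides from inside the cell to cytotoxic T cells. The immunoproteasome cuts those peptides, the TAP transporter carries them into the endoplasmic reticulum and tapasin helps to load them. In islets this programme is best known from autoimmune diabetes, in which class I molecules on beta cells are often raised.

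Interferon-responsive promoters carry short recognition letters, and the promoters below show examples of such letters among the 33 genes. The forms searched on both strands were the core of the interferon-stimulated response element, ISRE (the letters GAAA, any 2 bases, then GAAA), a form with 1 base less between its parts (GAANNGAAA), and the core of the gamma-activated site, GAS (TTCNNNGAA). The forms can overlap each other. In RefSeq, 27 of the 33 members had a promoter in the table used, covering 250 bases before and 50 after the start in GRCm38.p6. The ISRE core stood in 14 of these 27 (51.852%), against 3.489% of all 27025 promoters. The shorter form stood in 9 (33.333%), against 7.563% of all promoters, and the GAS core in 7 (25.926%), against 8.466%. In 6 of the 27, Irf7, Irf9, Oasl2, Psmb9, Tap1 and Tapbp, none of the forms stood in this window. The 250 bases before the start are given for Isg15, with 3 overlapping ISRE cores, for B2m, with 1 core, for H2-K1, with the shorter form, and for Irf1, with a GAS core. For Ifih1, whose letters lie just after the start, 24 bases there are given. Capitals mark every match, each sequence runs 5′ to 3′ on the strand of its gene, and a match describes letters only.
Isg15, chr4:156200819-156201068, minus strand: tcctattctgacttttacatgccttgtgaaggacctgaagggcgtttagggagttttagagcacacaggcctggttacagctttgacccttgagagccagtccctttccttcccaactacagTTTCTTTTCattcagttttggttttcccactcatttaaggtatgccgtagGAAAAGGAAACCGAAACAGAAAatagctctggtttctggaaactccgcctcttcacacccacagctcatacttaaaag
B2m, chr2:122147437-122147686, plus strand: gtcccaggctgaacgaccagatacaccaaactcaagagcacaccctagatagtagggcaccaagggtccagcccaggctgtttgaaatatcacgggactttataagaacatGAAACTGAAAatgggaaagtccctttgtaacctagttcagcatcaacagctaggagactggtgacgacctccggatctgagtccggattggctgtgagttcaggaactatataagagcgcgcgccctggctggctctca
H2-K1, chr17:34000348-34000597, minus strand: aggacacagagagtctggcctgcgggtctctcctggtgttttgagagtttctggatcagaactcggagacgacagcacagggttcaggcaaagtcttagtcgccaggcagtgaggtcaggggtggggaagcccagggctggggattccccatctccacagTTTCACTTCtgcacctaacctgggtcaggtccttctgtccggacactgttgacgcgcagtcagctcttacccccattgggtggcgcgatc
Irf1, chr11:53769764-53770013, plus strand: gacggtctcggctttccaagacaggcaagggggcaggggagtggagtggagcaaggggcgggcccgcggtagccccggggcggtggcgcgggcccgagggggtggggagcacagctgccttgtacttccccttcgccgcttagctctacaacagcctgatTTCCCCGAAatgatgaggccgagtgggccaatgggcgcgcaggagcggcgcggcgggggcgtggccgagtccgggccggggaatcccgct
Ifih1, chr2:62646212-62646235, minus strand: gagaagaGAATCGAAACAGAAAcc

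In the GRCm38 annotation, 7 members lie on chromosome 17 in the MHC region. These are Tapbp, H2-K1, Psmb9, Tap1, Psmb8, Tap2 and H2-D1, from 33915899 to 35267499. Psmb9 (34181987 to 34187764, minus strand) and Tap1 (34187553 to 34197225, plus strand) are transcribed away from each other, their RefSeq starts lie 226 bases apart, and their exons overlap by 212 bases. H2-K1 spans 33996017 to 34000347 and H2-D1 spans 35262730 to 35267499 on that chromosome. Ifih1 lies on chromosome 2 at 62595798 to 62646255, B2m on chromosome 2 at 122147686 to 122153083, and Usp18 on chromosome 6 at 121245906 to 121270917. The strand setting of the counting is not given in the sources used here, so reads of the Psmb9 and Tap1 overlap, and of the 124 bases that Usp18 shares with Gm44148 on the other strand, cannot be assigned with certainty. Class I heavy chains, Ifit, Gbp, Oas1 and Mx genes have near-identical relatives, and their counts are uncertain for that reason too.

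The libraries held 28287011 to 40191501 counts. In WT 2, WT 3 and rIAPP 2 the genes Lars2, Mir6236 and Rn45s, here called ribosomal-rich, took 94.3%, 68.9% and 67.7% of them, against 0.286% to 11.8% elsewhere. These libraries kept 1667190, 8796210 and 9510502 other counts, and the remaining libraries 30199765 to 40062153. The members together had 1511 counts in WT 2 and up to 47783 in the deepest library, so a member's level in WT 2 rests on few reads. Where these 3 libraries were left out together, WT 1 was the only WT library, and the test assumes that it varies like the other groups, which supply the spread. The preparations carried the RNA of islets. The 9 beta cell markers summed to 72957 to 83268 CPM (counts scaled to a common library size with TMM factors) in hIAPP libraries, 68577 to 83413 in hIAPP_hCAST, 38736 to 50332 in rIAPP, 92111 to 102463 in hCAST and 113861 to 124059 in WT. In bulk islets, fewer cells of a type and less RNA per cell cannot be told apart, which applies to each difference given here.

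Levels of different genes were compared per length, as FPKM rescaled to the same total over the genes other than the ribosomal-rich ones. The 3 class I chains and the loading chaperone Tapbp were the most abundant members. H2-D1 averaged 253, B2m 248, Tapbp 119 and H2-K1 119 rescaled FPKM over the 15 libraries. The inhibitor Usp18 followed with 34.5. The 5 genes of peptide supply and loading had a median of 20.8 and the 4 regulators a median of 7.54. The 14 antiviral effectors lay lowest, with a median of 1.83, from Ifi35 at 24.3 down to Mx1 at 0.0956. Isg15, a ubiquitin-like protein that is attached to other proteins, averaged 1.19, and Ifit3, which binds viral RNA complexes, 0.599. Isg15 had only 188 counts over all libraries, and Mx1 had 70 and did not pass the filter on low counts.

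**Figure D1:**
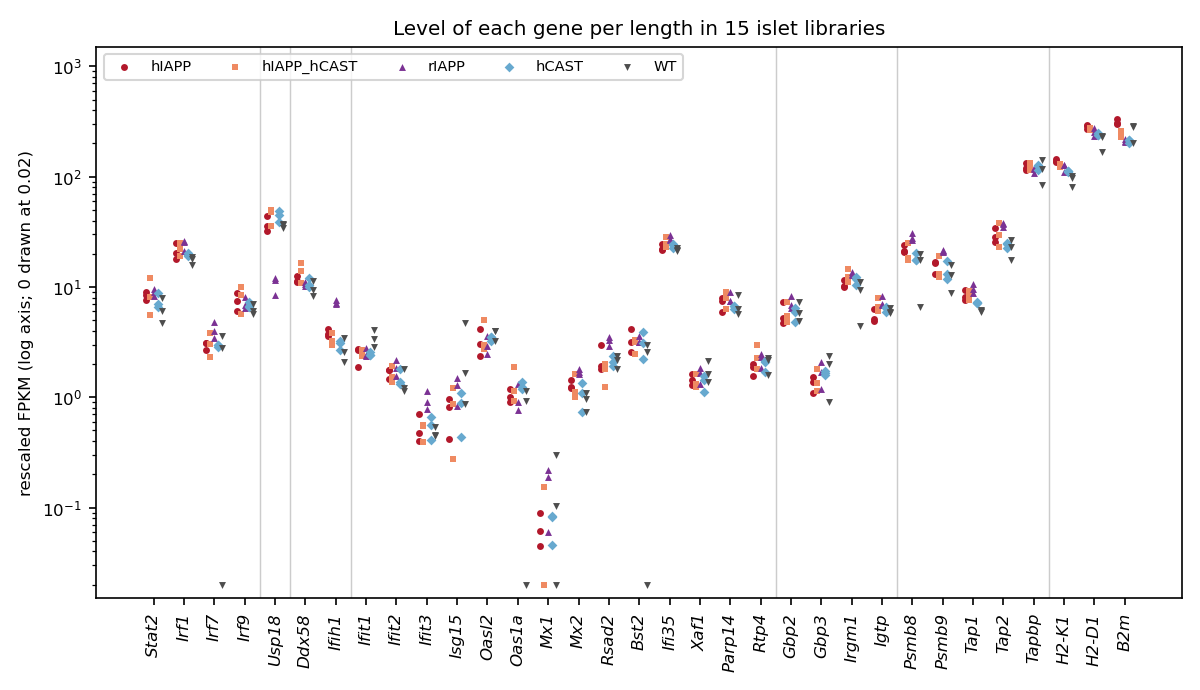
Rescaled FPKM (log axis) of each of the 33 genes, with 1 point per library and colours and marker shapes for the 5 groups. Vertical lines separate the roles; class I chains stand at the right with averages of 119 to 253, antiviral effectors lie mostly near 1 to 4, and values of 0 are drawn at the bottom edge.

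Transcripts of interferons themselves were close to undetectable. Of 15 interferon genes counted, 12, among them Ifnb1 and the Ifna genes on that list, had 0 counts in every library. How reads that match several genes were counted is not given in the sources used here. Ifnk had 9 counts over the 15 libraries, Ifnz 4 and Ifng 1. The rIAPP libraries had 0 counts of all 15, and 3 counts over that group would be 0.0270 CPM, so levels up to that could not be seen. The corresponding limit was 0.0195 CPM in hIAPP, 0.0178 in hIAPP_hCAST, 0.0191 in hCAST and 0.0486 in WT, for counting error only. Transcripts of receptors and kinases were present throughout. The 9 receptor and kinase genes summed to 302 to 338 CPM in hIAPP, 306 to 335 in hIAPP_hCAST, 294 to 305 in rIAPP, 327 to 340 in hCAST and 328 to 343 in WT. Among them only Jak1, a kinase of both interferon pathways, differed in a comparison with WT. It fell by 0.38 ± 0.0678 (SE) on the log2 scale in rIAPP islets (edgeR quasi-likelihood test, adjusted p = 0.000574), where 12.6% of all tested genes fell. Its log2 fold change in hIAPP islets was -0.21 (adjusted p = 0.0550).

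The comparison of rIAPP with WT asks how islets respond to a transgene for the form of IAPP that does not aggregate. The genes that cut and carry class I peptides (Psmb8, Psmb9, Tap1 and Tap2) were higher in rIAPP islets than in WT islets, as were the RNA sensor Ifih1 and the regulator Irf1, and Usp18 was the member with the largest fold change, downwards. Of the 32 tested members, 7 rose, 2 fell and 23 did not pass an adjusted p of 0.05 (edgeR quasi-likelihood test, Benjamini-Hochberg over 15460 genes). Of all tested genes 10.7% rose and 12.6% fell, so 23.3% were called, and the members' 9 calls make a share close to that background. The median log2 fold change was 0.25 over the tested members and 0.01 over all tested genes. By role, 4 of the 5 genes of peptide supply and loading rose with a median of 0.57, and 0 of 13 tested antiviral effectors passed, with a median of 0.11. The rIAPP and WT libraries did not overlap for 19 members, 15 higher and 4 lower, as for 40.6% of all tested genes. An unadjusted p under 0.05 was reached by 16 members and by 5506 of the 15460 tested genes. Of those effectors, Ifit3 (0.79), Mx2 (0.62), Rsad2 (0.52) and Ifi35 (0.24) reached it with higher levels in rIAPP. Ifit1 (-0.44) reached it with lower levels.

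The comparison of hIAPP with WT asks the same of the human form. With edgeR over all groups, the class I heavy chains H2-K1 and H2-D1 and the transporter gene Tap1 were higher in hIAPP islets than in WT islets. H2-K1 passed in 23 of 25 alternatives, Tap1 in 19 and H2-D1 in 9. With hCAST in place of WT none of them passed. The hCAST mice carry the CAST transgene, and their islets had far more reads of H2-Ea-ps, an MHC pseudogene, than WT islets. The part of either in that result was not tested. Of 32 tested members, 3 rose (H2-K1, H2-D1 and Tap1), 0 fell and 29 did not pass, while 6.27% of all tested genes rose and 5.59% fell (11.9% called). The median log2 fold change was 0.07 over the tested members and 0.02 over all tested genes. Among the 13 tested antiviral effectors 0 passed and the median was -0.05. The hIAPP and WT libraries did not overlap for 10 members, 7 higher and 3 lower, as for 33.1% of all tested genes. The 95% interval of the fold change lay within 2-fold of no change for 30 of the 32 members and for 11593 of the 15460 tested genes.

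Set directly against each other, hIAPP islets had more Usp18 and B2m than rIAPP islets and less Ifih1, Igtp, Ifi35 and Tap2. These 2 higher and 4 lower members compare with 7.71% and 5.28% of all tested genes (13% called in either direction). The median log2 fold change was -0.21 over the tested members and 0.01 over all tested genes. The groups did not overlap for 18 members, 4 higher and 14 lower, as for 35.5% of all tested genes. The comparison shares the rIAPP and hIAPP libraries with those against WT, so its values are no independent check of them.

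**Figure D2:**
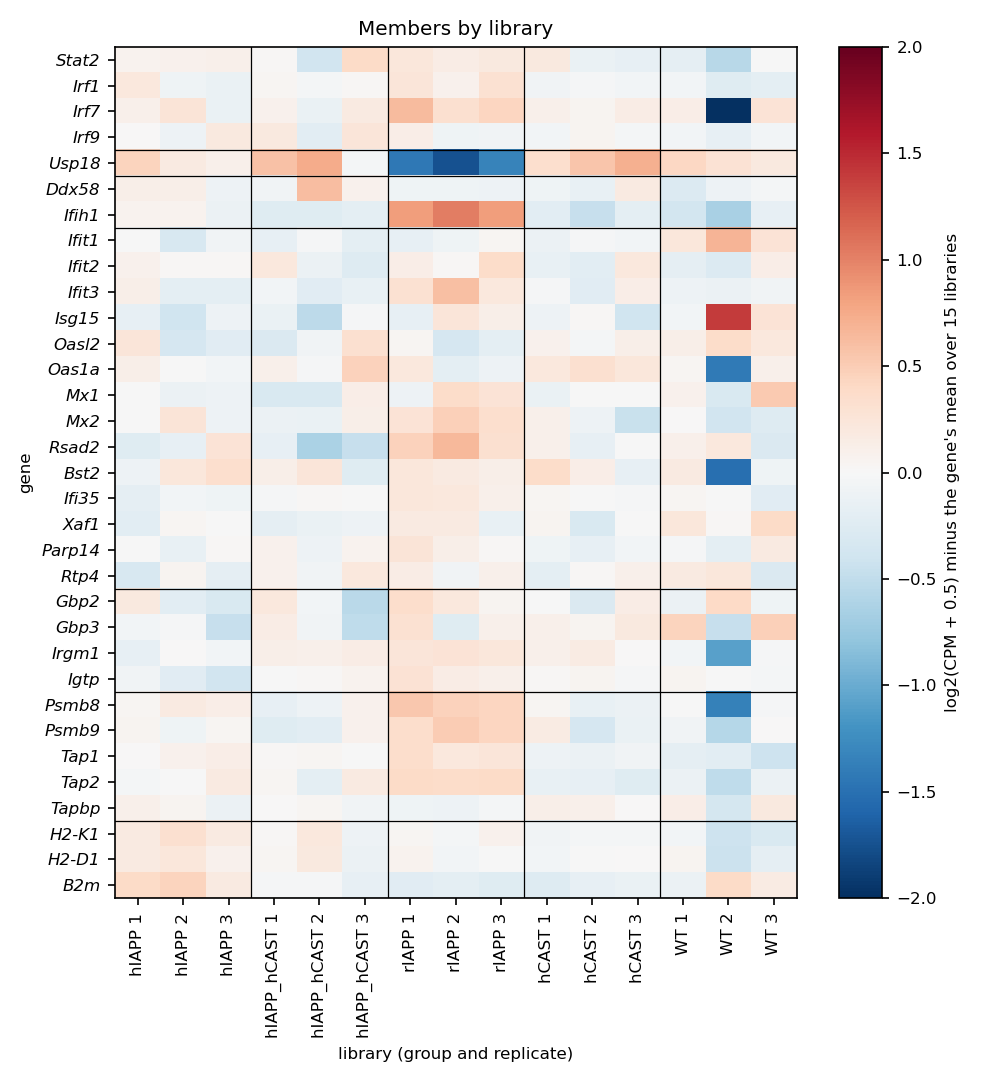
Members (rows, grouped by role) by library (columns, grouped by genotype). The colour is log2(CPM + 0.5) minus the gene's mean over 15 libraries, and values beyond the scale take its end colour. The 3 rIAPP columns are blue for Usp18 and red for Ifih1, Psmb8, Psmb9, Tap1 and Tap2, and WT 2 stands apart for several members with few reads.

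Over the 5 groups, rIAPP held the highest mean CPM of 19 of the 33 members and the lowest of 4, and WT held the highest of 5 and the lowest of 17. These means were not ranked over all tested genes, so the numbers describe the members only. The WT means include WT 2, which had 0 counts of Irf7, Oas1a, Mx1 and Bst2. All 3 rIAPP libraries lay above the other 12 for 12 of the 32 tested members, which were Irf7, Ifit3, Mx2, Rsad2, Ifih1, Psmb8, Psmb9, Tap1, Tap2, Ifi35, Irgm1 and Igtp. The same held for 6.52% of all tested genes. For Usp18 all 3 rIAPP libraries lay below the other 12, as for 7.37% of all tested genes. Without WT 2, WT 3 and rIAPP 2, the 2 remaining rIAPP libraries lay above the other 10 for 13 members (9.37% of all tested genes) and below them for 1 (11.4%). That choice of libraries was made after the counts were seen. In the other groups, 0 members had all 3 libraries above the other 12 in hIAPP (1.92% of all tested genes), hIAPP_hCAST (0.298%) or hCAST (0.304%), and 0 had them below in hIAPP_hCAST (0.239%) or hCAST (0.194%). Igtp lay lowest in all 3 hIAPP libraries (0.744% of all tested genes), Ifit1 highest in all 3 WT libraries (2.46%) and Tap1 lowest in all 3 WT libraries (2.01%).

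Among the regulators, Irf1, a transcription factor that drives class I and immunoproteasome genes, had 36.4, 32.6 and 38.3 CPM in rIAPP libraries, against 29.5, 25.8 and 26.9 CPM in WT libraries. Each rIAPP library was above each WT library. Irf1 rose by 0.37 ± 0.0967 on the log2 scale (adjusted p = 0.0114), and the call was lost without rIAPP 3 (adjusted p = 0.0525) or without WT 3 (0.0550). Irf1 also lost the call when WT 2, WT 3 and rIAPP 2 were left out together. In hIAPP its log2 fold change against WT was 0.15 (adjusted p = 0.327). Irf7, the master regulator of type I interferon genes, had 2.47, 2.80 and 2.02 CPM in hIAPP libraries, 2.44, 2.01 and 2.65 in hIAPP_hCAST, 3.77, 2.96 and 3.24 in rIAPP libraries, 2.46, 2.38 and 2.57 in hCAST libraries and 2.54, 0 and 2.85 in WT libraries. The rIAPP libraries were the highest and the other groups overlapped. The 0 came from WT 2, the library with the fewest counts outside the ribosomal-rich genes. The Irf7 difference between rIAPP and WT did not pass (0.50 ± 0.288, adjusted p = 0.232). Stat2 and Irf9, partners in the transcription factor that binds ISREs, had log2 fold changes of 0.37 (adjusted p = 0.132) and 0.07 (0.767) between rIAPP and WT. Stat2 passed, higher in rIAPP, with only the 2 groups in the fit and without hIAPP_hCAST 3.

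Usp18 removes ISG15 from proteins and blocks signalling at the type I interferon receptor. It had 33.1, 27.5 and 25.9 CPM in hIAPP libraries, 36.5, 40.9 and 23.5 in hIAPP_hCAST, 8.69, 6.88 and 9.28 in rIAPP libraries, 30.6, 35.8 and 40.1 in hCAST libraries and 32.3, 29.8 and 27.8 in WT libraries. The 3 rIAPP libraries stood far below all others, and the other 4 groups overlapped. Usp18 averaged 8.29 ± 1.25 CPM in rIAPP and 29.9 ± 2.26 CPM in WT (SD, n = 3 each), with a log2 fold change of -1.83 ± 0.197 (adjusted p = 1.26e-05). Between hIAPP and WT its log2 fold change was -0.06, with a 95% interval of -0.46 to 0.33 (adjusted p = 0.885). Between hIAPP and rIAPP it was 1.77 ± 0.186 (adjusted p = 1.67e-05). Usp18 passed in each of the 25 alternatives tried for rIAPP against WT.

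Of the RNA sensors, Ifih1, which encodes the sensor of long double-stranded RNA, had 9.69, 9.60 and 8.43 CPM in hIAPP libraries, 7.67, 7.64 and 7.91 in hIAPP_hCAST, 16.8, 19.2 and 16.8 in rIAPP libraries, 7.88, 6.53 and 7.95 in hCAST libraries and 6.99, 5.69 and 8.10 in WT libraries. The rIAPP libraries were far above the rest, and the hIAPP libraries lay just above those of WT without overlap. Ifih1 was 2.42-fold higher in rIAPP islets than in WT islets (log2 fold change 1.28 ± 0.124, adjusted p = 1.61e-06), and passed in each of the 25 alternatives. In hIAPP islets the difference did not pass (0.35 ± 0.123, adjusted p = 0.0704), and hIAPP lay below rIAPP by a log2 fold change of -0.92 ± 0.108 (adjusted p = 2.04e-05). The other sensor, Ddx58, which recognises the ends of viral RNA, differed by 0.06 between rIAPP and WT (95% interval -0.28 to 0.40, adjusted p = 0.847) and by 0.20 between hIAPP and WT (adjusted p = 0.438).

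**Figure D3:**
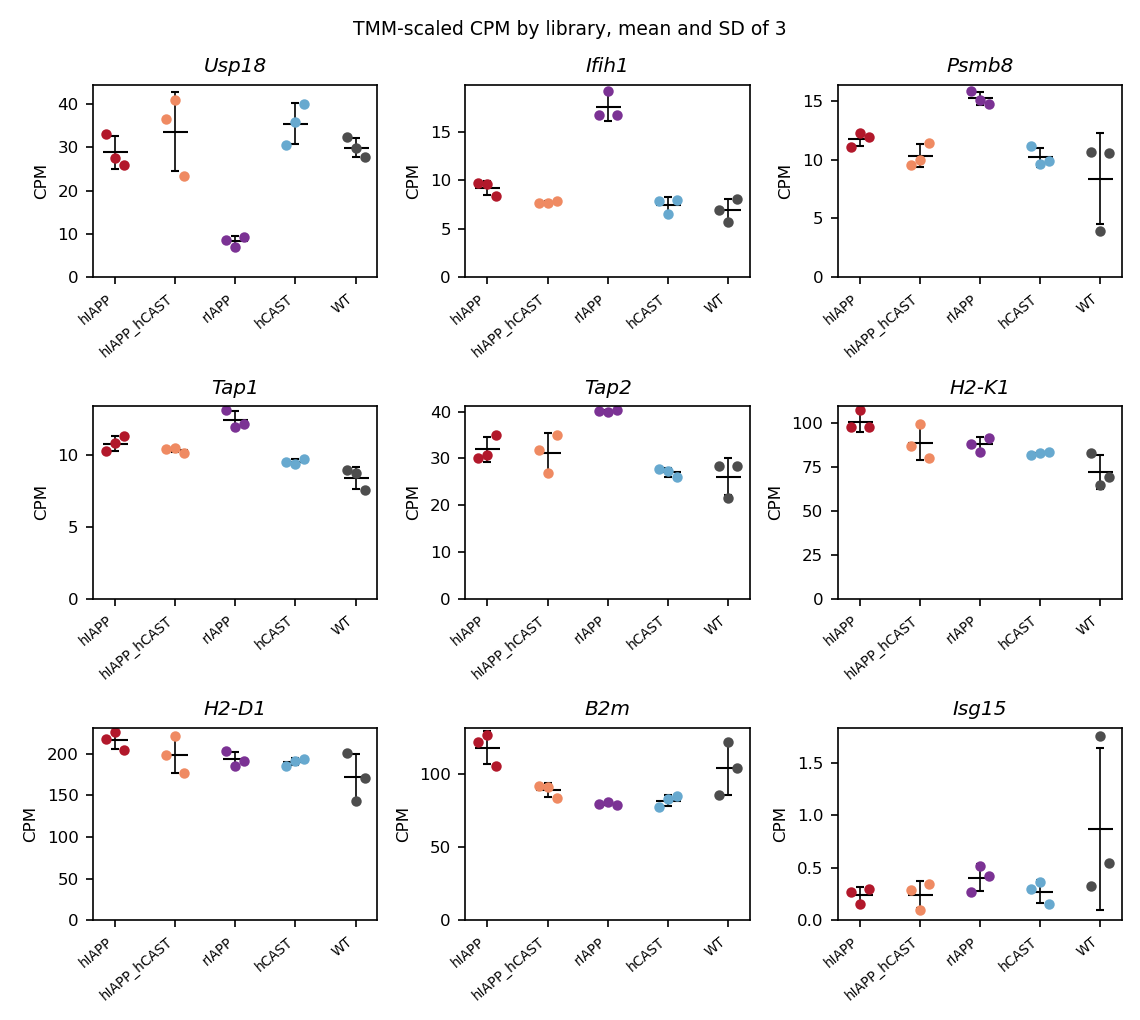
CPM of 9 members in each library (points), by group, with the group mean and SD of 3 libraries (bars); each vertical axis starts at 0. The rIAPP points lie below all others for Usp18 and above all others for Ifih1, Psmb8, Tap1 and Tap2, H2-K1 and H2-D1 overlap between several groups, and Isg15 stays under 2 CPM.

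Of the antiviral effectors, 0 passed against WT in rIAPP or hIAPP islets with edgeR. Against WT in rIAPP this depended on the method: Ifit3, Mx2 and Ifi35 passed, each higher, with limma on rescaled FPKM at both pseudocounts. In those 2 settings the median log2 fold change of all tested genes was 0.10 and 0.13, against 0.01 with edgeR. Ifi35 also passed with a filter of a mean CPM of at least 1 and without WT 1, and Rsad2 when hCAST replaced WT. In hIAPP against WT 0 effectors passed in any of the 25 alternatives. Isg15 had 0.264, 0.151 and 0.296 CPM in hIAPP libraries, 0.284, 0.0968 and 0.343 in hIAPP_hCAST, 0.265, 0.518 and 0.424 in rIAPP libraries, 0.300, 0.366 and 0.152 in hCAST libraries and 0.323, 1.75 and 0.540 in WT libraries. The highest value, in WT 2, stands for 4 counts. At this depth a difference in Isg15 was not detectable: the log2 fold change was -0.41 between rIAPP and WT (95% interval -1.70 to 0.89, adjusted p = 0.690) and -1.05 between hIAPP and WT (-2.34 to 0.23, adjusted p = 0.279). Ifit3 had 0.604, 0.388 and 0.388 CPM in hIAPP libraries, 0.473, 0.368 and 0.421 in hIAPP_hCAST, 0.758, 1.04 and 0.670 in rIAPP libraries, 0.5, 0.366 and 0.609 in hCAST libraries and 0.452, 0.438 and 0.463 in WT libraries. The rIAPP libraries were the 3 highest, yet the difference from WT did not pass (0.79 ± 0.363, adjusted p = 0.129). A further 2 effectors had all 3 rIAPP libraries above the other 12 without passing between rIAPP and WT, Rsad2, which makes a chain-terminating nucleotide (0.52, adjusted p = 0.0860), and Mx2, a dynamin-like GTPase gene annotated as a polymorphic pseudogene (0.62, adjusted p = 0.118). Ifit1, a relative of Ifit3, had negative log2 fold changes that did not pass, -0.44 in rIAPP (adjusted p = 0.0709) and -0.51 in hIAPP (adjusted p = 0.0558), both against WT.

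Ifi35, an interferon-induced leucine zipper protein, was the 1 effector of 13 tested that passed in any of the 8 contrasts fitted with edgeR over all groups. Rsad2 also passed in hIAPP against rIAPP, where it was lower, with DESeq2, with only the 2 groups in the fit and without hIAPP 3. Ifi35 had 12.7, 14.0 and 13.7 CPM in hIAPP libraries, against 17.1, 16.9 and 15.6 CPM in rIAPP libraries. Ifi35 had 14.3 to 14.7 CPM in hIAPP_hCAST, 14.3 to 14.9 in hCAST and 12.3 to 15.0 in WT. Every rIAPP library exceeded every other library. Ifi35 was lower in hIAPP than in rIAPP by a log2 fold change of -0.29 ± 0.0841 (adjusted p = 0.0279). The call was lost without hIAPP 1 (adjusted p = 0.133), hIAPP 3 (0.0604), rIAPP 1 (0.122) or rIAPP 2 (0.0868). Ifi35 also lost the call with no filter on low counts and with limma on rescaled FPKM at both pseudocounts. Between rIAPP and WT its log2 fold change was 0.24 (adjusted p = 0.0660).

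The interferon-inducible GTPases act on membranes around intracellular microbes. Igtp had 5.44, 4.78 and 4.25 CPM in hIAPP libraries, 5.70, 5.79 and 6.04 in hIAPP_hCAST, 7.05, 6.36 and 6.16 in rIAPP libraries, 5.80, 5.93 and 5.58 in hCAST libraries and 5.96, 5.69 and 5.55 in WT libraries. The hIAPP libraries were the lowest 3 and the rIAPP libraries the highest 3. Igtp was lower in hIAPP than in rIAPP by -0.44 ± 0.114 on the log2 scale (adjusted p = 0.0158), a call lost without hIAPP 2 (adjusted p = 0.0544), hIAPP 3 (0.0799) or rIAPP 1 (0.0997). Igtp also lost the call with limma on rescaled FPKM at both pseudocounts. Its fold changes against WT did not pass in rIAPP (0.18, adjusted p = 0.334) or in hIAPP (-0.26, adjusted p = 0.192). Irgm1 had 12.8, 13.2 and 12.7 CPM in rIAPP libraries, against 10.4, 4.82 and 10.6 CPM in WT libraries, where the lowest value is that of WT 2. Irgm1 rose by 0.41 ± 0.138 (adjusted p = 0.0424), but passed in only 13 of 25 alternatives. It was lost without any of the 3 hIAPP or 3 rIAPP libraries, hCAST 1, hCAST 2 or WT 1 (adjusted p = 0.0505 to 0.0927), and when hCAST replaced WT its log2 fold change was 0.15 (adjusted p = 0.417). Leaving out WT 2, WT 3 and rIAPP 2 together, or fitting only the 2 groups, also lost the Irgm1 call.

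The inducible subunits Psmb8 and Psmb9 replace constitutive subunits in the immunoproteasome. Psmb8 had 11.1, 12.3 and 11.9 CPM in hIAPP libraries, 9.58, 10.0 and 11.4 in hIAPP_hCAST, 15.8, 15.1 and 14.8 in rIAPP libraries, 11.1, 9.66 and 9.86 in hCAST libraries and 10.7, 3.94 and 10.6 in WT libraries. Psmb9 had 5.65, 5.10 and 5.57 CPM in hIAPP libraries, 4.52, 4.61 and 5.76 in hIAPP_hCAST, 7.10, 7.92 and 7.48 in rIAPP libraries, 6.12, 4.21 and 4.93 in hCAST libraries and 5.14, 3.50 and 5.47 in WT libraries. For both subunits the 3 rIAPP libraries were above the other 12, and WT 2 was the lowest library. Psmb8 rose in rIAPP against WT by 0.65 ± 0.161 on the log2 scale (adjusted p = 0.00736) and passed in each of the 25 alternatives. Psmb9 rose by 0.56 ± 0.167 (adjusted p = 0.0223), and its call was lost without rIAPP 2 (adjusted p = 0.0604), rIAPP 3 (0.0528) or WT 1 (0.0701). Psmb9 also lost the call when WT 2, WT 3 and rIAPP 2 were left out together. The third inducible subunit, Psmb10, which is not among the 33 genes, rose in rIAPP by 0.81 ± 0.141 (adjusted p = 0.000515). Of the 14 constitutive subunits, 1 rose in rIAPP (Psma7, 0.33, adjusted p = 0.0155) and 0 fell, with a median of 0.16. In that comparison 10.7% of all tested genes rose and 12.6% fell. In hIAPP against WT neither Psmb8 (0.28, adjusted p = 0.276) nor Psmb9 (0.10, adjusted p = 0.741) passed.

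Tap1 and Tap2 form the peptide transporter. Tap1 had 10.3, 10.8 and 11.3 CPM in hIAPP libraries, 10.5, 10.5 and 10.2 in hIAPP_hCAST, 13.1, 12 and 12.2 in rIAPP libraries, 9.54, 9.39 and 9.72 in hCAST libraries and 8.97, 8.75 and 7.56 in WT libraries. The groups were ordered rIAPP, then hIAPP and hIAPP_hCAST, which overlapped, then hCAST, then WT. Against WT, Tap1 rose by 0.57 ± 0.0987 in rIAPP (adjusted p = 0.000499, called in each of the 25 alternatives) and by 0.36 ± 0.0975 in hIAPP (adjusted p = 0.0258). The hIAPP call was lost without hIAPP 2 (adjusted p = 0.0659), hIAPP 3 (0.0848) or WT 3 (0.138), and with only the 2 groups in the fit. Leaving out WT 2, WT 3 and rIAPP 2 together also lost this call. When hCAST replaced WT the log2 fold change was 0.18 (adjusted p = 0.242). Tap2 had 30.0, 30.8 and 34.9 CPM in hIAPP libraries, 31.7, 26.9 and 35.1 in hIAPP_hCAST, 40.1, 40 and 40.2 in rIAPP libraries, 27.7, 27.4 and 25.9 in hCAST libraries and 28.4, 21.4 and 28.4 in WT libraries. The rIAPP values lay close together and above all others. Tap2 rose in rIAPP by 0.57 ± 0.106 (adjusted p = 0.000923), with an adjusted p of 0.0502 when WT 2, WT 3 and rIAPP 2 were left out together and WT 1 alone stood for WT. It was lower in hIAPP than in rIAPP by -0.33 ± 0.0979 (adjusted p = 0.0333), a call lost without hIAPP 1, hIAPP 2 or any of the 3 rIAPP libraries (adjusted p = 0.0860 to 0.147). That call was also lost with limma on rescaled FPKM at both pseudocounts and without WT 2, WT 3 and rIAPP 2 together. Tapbp, the tapasin gene, did not pass against WT in rIAPP (-0.11, adjusted p = 0.475) or in hIAPP (-0.02, adjusted p = 0.944), and passed, lower in rIAPP, without WT 2.

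**Figure D4:**
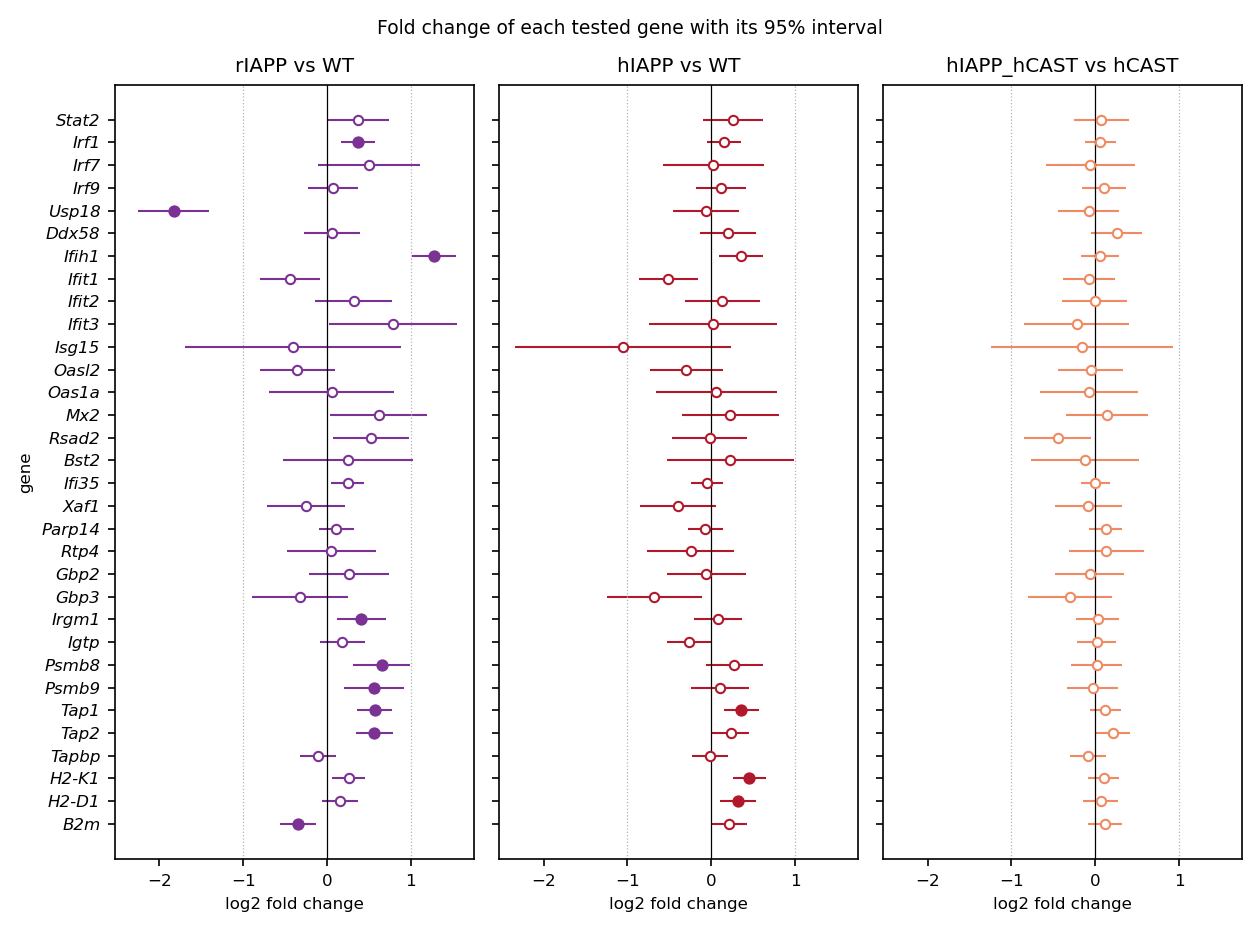
Log2 fold change (points) with its 95% interval (lines) for the 32 tested members in rIAPP against WT, hIAPP against WT and hIAPP_hCAST against hCAST; filled points passed an adjusted p of 0.05 (edgeR quasi-likelihood test) and dotted lines mark 2-fold changes. The rIAPP panel has 9 filled points with Usp18 at the far left and Ifih1 at the far right, the hIAPP panel has 3, and the last panel has 0.

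The heavy chain H2-K1 had 97.2, 107 and 97.4 CPM in hIAPP libraries, 86.5, 99.0 and 80.0 in hIAPP_hCAST, 88.0, 83.5 and 91.3 in rIAPP libraries, 81.7, 82.9 and 83.1 in hCAST libraries and 82.8, 64.3 and 69.2 in WT libraries. The heavy chain H2-D1 had 218, 226 and 205 CPM in hIAPP libraries, 199, 221 and 177 in hIAPP_hCAST, 203, 185 and 192 in rIAPP libraries, 185, 191 and 193 in hCAST libraries and 200, 144 and 171 in WT libraries. For both chains each hIAPP library was above each WT library, and the low WT values came from WT 2 and WT 3, which are rich in ribosomal reads. Against WT, hIAPP islets had more H2-K1 (0.46 ± 0.0918, adjusted p = 0.00517) and more H2-D1 (0.32 ± 0.10, adjusted p = 0.0490). When WT 2, WT 3 and rIAPP 2 were left out, which leaves 1 WT library, the log2 fold changes were 0.27 for H2-K1 (adjusted p = 0.204) and 0.10 for H2-D1 (adjusted p = 0.670). The H2-D1 call was also lost without any 1 hIAPP, rIAPP or hCAST library, hIAPP_hCAST 1, WT 2 or WT 3 (adjusted p = 0.0558 to 0.150). It was lost too with the ribosomal-rich genes removed and with only the 2 groups in the fit. With hCAST in place of WT the fold changes were 0.28 for H2-K1 (adjusted p = 0.0611) and 0.19 for H2-D1 (adjusted p = 0.289). As given above, hCAST islets also differ from WT islets in the CAST transgene and in H2-Ea-ps. In rIAPP neither heavy chain passed (H2-K1 0.26, adjusted p = 0.0533, and H2-D1 0.16, adjusted p = 0.284). For H2-K1 this turned with the setting: it passed, higher in rIAPP, with RLE scaling, a filter of a mean CPM of at least 1, DESeq2 and both limma settings, and without hIAPP_hCAST 2, hIAPP_hCAST 3 or WT 1. H2-D1 passed without WT 1.

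The shared light chain B2m had 122, 126 and 105 CPM in hIAPP libraries, 91.5, 91.1 and 83.1 in hIAPP_hCAST, 79.5, 80.6 and 78.6 in rIAPP libraries, 77.4, 82.7 and 84.5 in hCAST libraries and 85.3, 122 and 104 in WT libraries. The hIAPP libraries were above every hIAPP_hCAST, rIAPP and hCAST library, whereas WT spanned most of the range, with WT 2 and WT 3 high and WT 1 near the other groups. B2m was higher in hIAPP than in rIAPP by 0.57 ± 0.0980 (adjusted p = 0.000769) and passed in each of the 24 alternatives of that comparison. Against WT, the result turned on the WT libraries, and in rIAPP also on the rIAPP libraries and the method. With limma on rescaled FPKM the rIAPP difference from WT did not pass at either pseudocount. In rIAPP, B2m fell by 0.35 ± 0.102 (adjusted p = 0.0192), but its log2 fold change was -0.12 without WT 2, WT 3 and rIAPP 2 (adjusted p = 0.558) and -0.04 with hCAST in place of WT (adjusted p = 0.843), and the call was also lost without rIAPP 1 (0.0545), rIAPP 3 (0.0554), WT 2 (0.0900) or WT 3 (0.0678). In hIAPP, B2m did not pass against WT (0.21 ± 0.101, adjusted p = 0.177), but did without WT 2 (0.32, adjusted p = 0.0434), without the 3 libraries, against WT 1 alone (0.46, adjusted p = 0.0477), and when hCAST replaced WT (0.53, adjusted p = 0.00350).

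The groups with hCAST ask whether calpastatin alters islets with and without human IAPP. Of the 32 tested members, 0 were called in hCAST against WT, in hIAPP_hCAST against hCAST or in hIAPP_hCAST against hIAPP (edgeR), where 0.0194%, 0.75% and 0.466% of all tested genes were called. In hIAPP_hCAST against hIAPP, 0.0906% of all tested genes were higher and 0.375% lower. The compared libraries did not overlap for 5, 2 and 5 members, against 14.2%, 13.3% and 15.9% of all tested genes. At an unadjusted p under 0.05 there were 2, 2 and 4 members in these comparisons, against 1133, 1465 and 1743 of the 15460 tested genes. DESeq2 called 0, 0 and 1 of the members. The 95% interval lay within 2-fold of no change for 30, 31 and 31 of the 32 members. The same held for 12528, 12897 and 12791 of the 15460 tested genes. The nearest to a call was B2m, lower in hIAPP_hCAST than in hIAPP by a log2 fold change of -0.41 ± 0.0972 (adjusted p = 0.0675), with no overlap between the groups. It passed with DESeq2 (adjusted p = 0.0115), with no filter on low counts (0.0487), without WT 1 (0.0364) and without WT 2 (0.0478). H2-K1 differed between hIAPP_hCAST and hCAST by 0.10 (95% interval -0.09 to 0.29) and H2-D1 by 0.07 (-0.14 to 0.27). Across both backgrounds, hIAPP and hIAPP_hCAST islets together had more H2-K1 (0.28 ± 0.0635, adjusted p = 0.00932), Tap1 (0.24 ± 0.0650, adjusted p = 0.0227) and Tap2 (0.22 ± 0.0715, adjusted p = 0.0492) than WT and hCAST islets together, where 7.32% of all tested genes rose and 5.83% fell (13.2% called). The 6 libraries with and the 6 without human IAPP did not overlap for 1 member, Tap1, and for 3.98% of all tested genes. H2-K1 and Tap1 lost their calls without WT 2, WT 3 and rIAPP 2 (adjusted p = 0.113 and 0.118), and Tap1 also without hIAPP 3 (0.0572), hCAST 2 (0.0575) or WT 3 (0.0762). Tap2 passed in only 5 of 23 alternatives, and its call was lost without each of the libraries other than hIAPP_hCAST 2 (adjusted p = 0.0517 to 0.122). The difference between the human IAPP effects on the hCAST and WT backgrounds called 0 members and 0% of all tested genes. At an unadjusted p under 0.05 it held 1 member (H2-K1, -0.36 ± 0.127, adjusted p = 0.440) and 1346 of the 15460 tested genes. H2-Ea-ps, a class II pseudogene of the MHC and no member, had 98.6, 52.4 and 117 CPM in hIAPP_hCAST libraries and 52.3, 48.8 and 47.2 in hCAST, against 0.585, 0.0646 and 0.148 in hIAPP and 0.473, 0.438 and 0.540 in WT. It rose by 6.66 ± 0.516 in hCAST against WT (adjusted p = 0.000236), and its part in the class I counts was not tested.

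The rest of the pathway was counted in lists of genes beyond the 33, with earlier results of these data known. In rIAPP against WT, 7 of 54 tested further interferon response genes rose and 2 fell, with a median of 0.12, where 10.7% of all tested genes rose and 12.6% fell. The number that rose is near that background. The 3 with the smallest p were Herc6, a ligase that attaches ISG15 (0.54 ± 0.107, adjusted p = 0.00154), Uba7, the enzyme that activates ISG15 (0.58 ± 0.126, 0.00304), and Ifi204, a DNA-binding protein of myeloid cells (2.79 ± 0.676, 0.00652). In hIAPP against WT, 4 rose and 2 fell (6.27% and 5.59% of all tested genes) with a median of -0.12, led by Ifitm3, which blocks viral entry (0.93 ± 0.176, adjusted p = 0.00356), Ifi204 (3.22 ± 0.643, 0.00486) and the exonuclease Isg20 (0.55 ± 0.124, 0.0102). In hIAPP against rIAPP, 1 was higher and 9 were lower (7.71% and 5.28% of all tested genes) with a median of -0.21, led by Uba7 (-0.70 ± 0.113, adjusted p = 0.000405), Herc6 (-0.52 ± 0.0960, 0.00127) and the checkpoint ligand Cd274 (-0.49 ± 0.121, 0.0119). Ifi204 had 3, 0 and 1 counts in the WT libraries, so its fold changes against WT rest on few reads.

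Of 17 tested nucleic acid sensors and adaptors, 2 rose and 0 fell in rIAPP against WT, Samhd1, which degrades nucleotides (0.69 ± 0.108, adjusted p = 0.000192), and Traf3, an adaptor (0.31 ± 0.10, 0.0355). In hIAPP against WT, Tlr7, an endosomal RNA sensor (2.53 ± 0.380, adjusted p = 0.000720), and the kinase Ikbke (0.42 ± 0.108, 0.0216) rose and 0 fell. Tlr7 had only 19, 0 and 4 counts in the WT libraries. Between hIAPP and rIAPP, Tlr7 (1.81, adjusted p = 0.000588) and Ikbke (0.41, 0.0107) were higher and Samhd1 (-0.43, 0.00551) was lower. Of 15 further regulators, 1 rose in rIAPP against WT (Irf8, a myeloid transcription factor, 0.95, adjusted p = 0.0191) and 2 rose in hIAPP against WT (Irf8, 1.45, 0.00327, and the feedback inhibitor Socs3, 1.85, 0.0147). Between hIAPP and rIAPP the phosphatase gene Ptpn1 was higher (0.48, adjusted p = 0.00540) and Ciita, the activator of class II genes, was lower (-1.10, 0.0359). Of all tested genes, 10.7% rose and 12.6% fell in rIAPP against WT, and the numbers that rose in these lists are near that background. In hIAPP against WT 6.27% rose and 5.59% fell. In hIAPP against rIAPP 7.71% were higher and 5.28% lower.

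Among 23 tested further class I and loading genes, Psmb10 and Fcgrt, a class I-like receptor for antibodies (1.01 ± 0.215, adjusted p = 0.00287), rose in rIAPP and 0 fell. In hIAPP Fcgrt rose (0.92 ± 0.212, adjusted p = 0.0117) and Pdia3, a loading chaperone, fell by 0.26 ± 0.0799 (0.0429). In hIAPP against rIAPP 2 were lower, the peptide trimmer Erap1 (-0.27, adjusted p = 0.00560) and Psmb10 (-0.48, 0.0166). Class II molecules present peptides from outside the cell, and 3 of their genes fell in hIAPP islets. H2-Ab1 fell by 1.14 ± 0.203 in hIAPP against WT (adjusted p = 0.00352), Cd74 by 1.11 ± 0.228 (0.00984) and H2-Aa by 1.17 ± 0.244 (0.0104), and these were the 3 of 17 tested class II genes and MHC neighbours that passed. In rIAPP against WT 1 of the 17 rose, the ribosomal protein gene Rps18 (0.35, adjusted p = 0.0373), and 0 fell. In hIAPP against rIAPP 4 were lower, among them H2-Ab1 (-1.32 ± 0.193, adjusted p = 0.000354). In hIAPP_hCAST against hCAST 3 fell, among them H2-Ab1 by 1.26 ± 0.192 (adjusted p = 0.00714). Of all tested genes, 10.7% rose and 12.6% fell in rIAPP against WT, and 6.27% rose and 5.59% fell in hIAPP against WT. In hIAPP against rIAPP 7.71% were higher and 5.28% lower, and in hIAPP_hCAST against hCAST 0.517% rose and 0.233% fell.

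Markers of other cells of the preparation moved with the same groups. The 19 tested macrophage markers summed to 397 to 565 CPM in hIAPP libraries, 226 to 382 in hIAPP_hCAST, 94.1 to 124 in rIAPP, 152 to 161 in hCAST and 109 to 145 in WT. Of them 16 rose and 0 fell in hIAPP against WT, and 0 rose and 2 fell in rIAPP against WT. The 10 endothelial markers summed to 673 to 713 CPM in hIAPP, 852 to 873 in rIAPP libraries and 599 to 718 in WT libraries. Of these 8 rose in rIAPP, such as Eng (0.71, adjusted p = 0.000484) and Plvap (0.53, 0.000531). The 10 matrix and stellate markers summed to 860 to 1057 CPM in hIAPP, 881 to 1000 in rIAPP libraries and 286.7 to 444 in WT libraries. Of these 7 rose in each comparison with WT. All 9 beta cell markers fell in rIAPP against WT and 7 fell in hIAPP. The 10 acinar markers summed to 37990 to 83839 CPM in hIAPP, 59687 to 83306 in rIAPP libraries and 10109 to 45513 in WT libraries. Of these 0 passed in either comparison. Of all tested genes, 10.7% rose and 12.6% fell in rIAPP against WT, and 6.27% rose and 5.59% fell in hIAPP against WT. The 12 T and NK cell markers with an entry summed to at most 3.42 CPM in any library. The part of these markers in the members' differences was not tested.

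Across the 15 libraries the members did not form 1 block. Over the 496 pairs of the 32 tested members, the Pearson correlation of log2 CPM had a median of 0.11 and ran from -0.92 to 0.97, and without WT 2, WT 3 and rIAPP 2 the median was 0.093. The pairs share libraries and depth, so this is a description. The 5 genes outside the members whose log2 CPM was most like the members' mean z score over the 15 libraries were Gramd4 (r = 0.934), St6galnac5 (0.927), Limk2 (0.914), Slc26a2 (0.914) and Dync1i1 (0.914).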

How the data were processed

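RNA-seq of 15 islet libraries was deposited as whole-number read counts per gene and as FPKM. Per the submitters' processing notes the tools were STAR and HTSeq and the builds GRCm38 and mm10, names of 1 assembly. The sources used here give no versions, annotation or strand setting. The deposited counts, not normalized by the authors, were tested with edgeR 4.0.16 in R 4.3.3 (TMM, filterByExpr by group, robust quasi-likelihood test, 1 coefficient per group over 15 libraries). Of 24060 entries, 2 of which repeat a symbol, 15460 were kept by the filter. The biological coefficient of variation, estimated as common to all genes, was 0.132. P-values were adjusted by Benjamini-Hochberg over the 15460 genes, with calls below 0.05, and the SE is the log2 fold change divided by the square root of F. A depth-limited level moves a CPM in steps of 1 read, which is largest in WT 2, and the intervals for 0 counts cover counting error only.

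The deposited FPKM of the authors divide by totals that include ribosomal reads. They were therefore rescaled over the other genes, and used for levels between genes and in limma 3.58.1 as an alternative. Other alternatives were RLE scaling, other filters, DESeq2 1.42.0, removal of the ribosomal-rich genes, leaving out libraries, fitting 2 groups only and hCAST in place of WT. Positions come from a GENCODE annotation of GRCm38 and promoters from RefSeq. Human transgene reads were not analysed here.

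The members and lists were chosen with earlier results of these data known. Values in every library were given for Isg15, Irf7, Ifit3, Psmb8, Psmb9, Tap1, H2-K1, H2-D1 and B2m and for the 4 called members with the smallest p in each direction of a comparison. All called members, up to 3 called genes of a list and 5 genes by likeness were named. Of Irf1, Irgm1 and the neighbours of Ifih1 and Usp18, values were added after they were seen. Group was the only term, since the labels give no batch.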

Additional observations from a re-analysis of the deposited data

How the results depend on the processing

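No value changed sign under any alternative for the called members and B2m. The numbers of members called were 3 in hIAPP against WT, 9 in rIAPP against WT, 6 in hIAPP against rIAPP and 3 for human IAPP on both backgrounds. Without WT 2, WT 3 and rIAPP 2 the numbers were 1 (B2m), 4 (Ifih1, Psmb8, Tap1 and Usp18), 7 and 1. In that setting WT 1 alone stood for WT and was assumed to vary like the other groups. In hIAPP against WT it was 1 with only the 2 groups in the fit and 1 with hCAST in place of WT. In rIAPP against WT it was 12 under both limma settings, which added Ifit3, Mx2, Ifi35 and H2-K1 and lost B2m. In hIAPP against rIAPP it was 3 under both limma settings and 10 with only the 2 groups in the fit. In hIAPP_hCAST against hIAPP it was 1, B2m, with no filter on low counts and 1 with DESeq2, against 0. Leaving out 1 library gave 1 to 3 members in hIAPP against WT (1 without hIAPP 2, hIAPP 3 or WT 3), 5 to 11 in rIAPP against WT (5 without rIAPP 3), 3 to 9 in hIAPP against rIAPP (3 without rIAPP 1), 0 to 1 in hIAPP_hCAST against hIAPP (1 without WT 1 or WT 2), 1 to 3 for human IAPP (1 without hIAPP 3, hCAST 2 or WT 3), and 0 to 0 in hCAST against WT, hIAPP_hCAST against hCAST and the interaction. The causes of these changes were not tested, except that fewer libraries entered. The share of all tested genes called under each setting is not given beside these numbers. The members' numbers alone do not show whether the members moved apart from other genes. On log2(rescaled FPKM + 1) the median of all genes was 0.11 in hIAPP against WT and 0.10 in rIAPP against WT, against 0.02 and 0.01 in the count test; at + 0.1 it was 0.15 and 0.13. No paired analysis was possible because no title number occurs in more than 1 group and the replicate numbers used here only follow accession order. Depth limits Isg15, Ifit3 and Mx1 most.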

Other observations

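Beyond the 33 genes, the genes within 1 Mb of Usp18, Ifih1, Psmb8, B2m and H2-K1 were looked at after the values were seen. Gca, a calcium-binding protein gene, lies on chromosome 2, 18030 bases before the start of Ifih1, which is on the minus strand. Gca had 7.82, 8.98 and 9.12 CPM in hIAPP libraries, 8.90, 7.55 and 9.16 in hIAPP_hCAST, 20.3, 23.4 and 18.9 in rIAPP libraries, 8.90, 7.43 and 8.18 in hCAST libraries and 7.70, 4.82 and 6.71 in WT libraries. Its 3 rIAPP libraries stood far above the others, as for Ifih1. Gca rose in rIAPP against WT by 1.57 ± 0.139 on the log2 scale (edgeR quasi-likelihood test, adjusted p = 6.73e-07) and was lower in hIAPP than in rIAPP by -1.26 ± 0.122 (adjusted p = 2.48e-06). The next gene, Kcnh7, a potassium channel gene, rose in rIAPP by 1.82 ± 0.570 (adjusted p = 0.0289). These were the 2 of 8 tested neighbours of Ifih1 that passed in rIAPP against WT. Around Usp18, 1 of 13 tested neighbours rose in rIAPP (Cecr2, 0.99, adjusted p = 0.0363) and 3 fell, Atp6v1e1, a proton pump subunit, by 0.56 (adjusted p = 0.000194), Bcl2l13 by 0.26 (0.0228) and Pex26, a peroxisome gene, by 0.34 (0.0245). Around B2m, 1 of 28 tested neighbours rose and 7 fell. In the MHC, where both windows share most genes and hold other members, 16 of 93 rose and 2 fell around Psmb8, and 15 of 80 rose and 2 fell around H2-K1. All these counts are for rIAPP against WT, where 10.7% of all tested genes rose and 12.6% fell.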
